A study of Mus musculus with 5 samples.

Results

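The Rab genes were the 60 protein-coding genes of GENCODE vM1 whose name is Rab, a number and at most 3 further characters, out of 22350 protein-coding genes on the autosomes and the X chromosome. Of these, 58 carry the name of a Rab GTPase. The name rule also admitted Rab3ip and Rab3il1, which are exchange factors that act on Rabs, and it admitted Rab42-ps, which carries a pseudogene name although the annotation lists it as protein-coding. The rule uses the gene name and no measured value, but the family and its role groups were taken up with earlier results of these data known.

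The data were ChIP-seq maps of the transcription factor Runx3 and of H3K4me1, the monomethylated lysine of histone H3 that is common at enhancers. They came from spleen CD8+ T cells (CD8-TC) of ICR mice, an outbred strain, which were positively selected on anti-CD8 beads, stimulated through the TCR and CD28 for 2 days and then grown for 4 days in 100 u/ml IL-2. All 5 libraries came from cells cultured in this way: 2 precipitations with anti-Runx3, 2 with non-immune serum (NIS) as control and 1 with anti-H3K4me1. The reads of the repeats had been joined before peaks were called, in mm9 coordinates, so the 9135 Runx3-bound and 18992 H3K4me1-marked regions have no spread between repeats, no height and no depth, and no test against replicates was possible.

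Rab GTPases are membrane switches: bound to GTP they recruit effectors such as tethers and motors to a vesicle, and bound to GDP they are drawn back into the cytosol. Exchange factors turn them on, GTPase-activating proteins turn them off, and each family member marks its own compartment, from the ER and Golgi to endosomes, lysosomes and secretory granules. In cytotoxic T cells the family is known above all through Rab27a, without which lytic granules fail to dock at the immune synapse, as in Griscelli syndrome.

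Each Rab gene was given the called regions that lie in its gene body or within 5 kb of either end, here called its window. A Runx3-bound region was found at 23 of the 60 genes, or 38.3% (95% Wilson interval 27.1 to 51.0, counting error only), against 23.5% of all protein-coding genes. An H3K4me1-marked region was found at 26 of the 60, or 43.3% (31.6 to 55.9), against 28.6% of all genes. Both kinds lay at 14 Rab genes, or 23.3% (14.4 to 35.4), against 16.5% of all genes. Rab genes were therefore more often bound and more often marked than the genome at large, and 35 of the 60 held at least 1 region.

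Long genes hold more regions, and Rab genes were rather long, with a median of 23.0 kb (1.19 to 227) against 15.4 kb for all genes. Each Rab gene was therefore set beside the 200 other protein-coding genes nearest to it in length. Among these genes of similar length 26.7% were Runx3-bound, which is just below the interval of the Rab genes, and the difference was 11.6 percentage points, or 23 genes where 16.0 would match. For H3K4me1 the genes of similar length stood at 32.4%, which is inside the interval of the Rab genes, and the difference was 10.9 points, or 26 genes against 19.5. The difference depended on the window: for Runx3 it was 7.30 points over the gene body alone and 6.04 points over 5 kb on either side of the gene start, and for H3K4me1 it was 8.81 and 5.58 points. The share with both kinds was 18.5% at similar length, also inside the interval. Genes with neither kind made up 41.7% of Rab genes (30.1 to 54.3), 59.4% of genes of similar length and 64.4% of all genes.

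**Figure D1:**
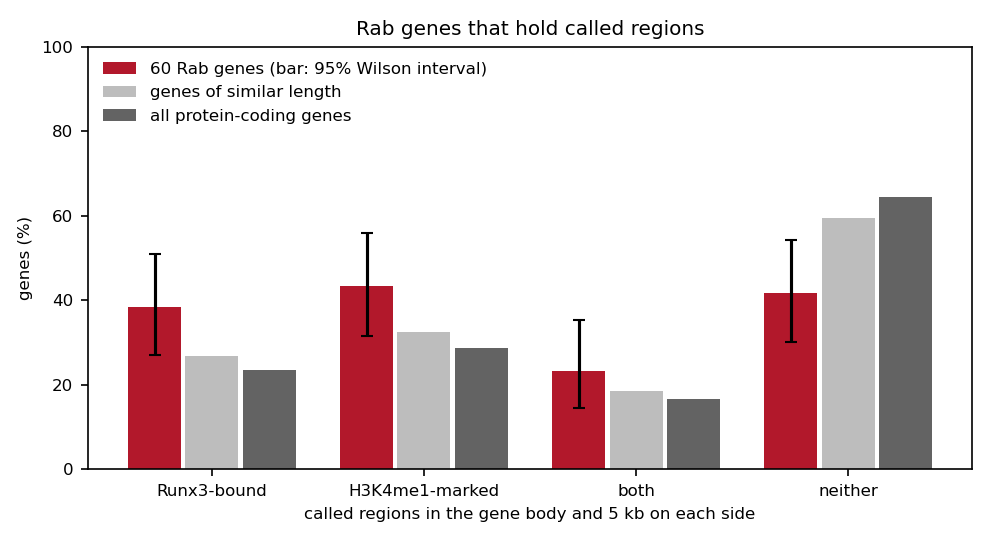
Share of genes (y axis, %) that hold a Runx3-bound region, an H3K4me1-marked region, both or neither in the gene body and 5 kb on each side, for the 60 Rab genes (red, with 95% Wilson intervals), genes of similar length (light grey) and all protein-coding genes (dark grey). The Rab bars are the highest for Runx3 (38.3%), for H3K4me1 (43.3%) and for both (23.3%), and the lowest for neither (41.7%).

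For Runx3 the share of Rab genes was above that of all genes in each length class, without matching of length inside a class. Of the 20 Rab genes under 15 kb, 6 (30%) were Runx3-bound, against 15.2% of all genes of that length. Of the 24 between 15 and 40 kb, 9 (37.5%) were, against 27.3%, and of the 16 longer ones 8 (50%) were, against 35.5%. H3K4me1 behaved otherwise in the middle class: marked genes were 8 of 20 (40.0%) against 18.9% for the short class, 8 of 24 (33.3%) against 33.9% for the middle class and 10 of 16 (62.5%) against 41.8% for the long class. The intervals of these small classes are wide, for example 18 to 53.3% for H3K4me1 in the middle class. For Runx3 they were 14.5 to 51.9%, 21.2 to 57.3% and 28.0 to 72.0% from short to long. Each of these includes the share of all genes in its class, so an excess within single classes is not shown.

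Other gene families gave shares on either side of those of the Rab genes. The Arf and Arl GTPases, the other large family of vesicle traffic, were Runx3-bound at 13 of 26 genes (50%, with 23.6% at similar length) and H3K4me1-marked at 10 (38.5%, with 29.4%). Ras genes were bound at 7 of 18 (38.9%, with 26.4%) and marked at 7 (38.9%, with 33.0%). Among housekeeping genes, ribosomal protein genes were bound at 27 of 79 (34.2%, with 15.2%) and marked at 30 (38%, with 18%). Proteasome subunit genes were bound at 12 of 41 (29.3%, with 23.5%) and marked at 19 (46.3%, with 28.7%). An excess of Runx3-bound or of H3K4me1-marked genes over genes of similar length was thus not particular to the Rab family.

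The 60 genes held 30 Runx3-bound regions, of 287 to 1097 bp (median 582), and 58 H3K4me1-marked regions, of 792 to 6393 bp (median 1573). Most Rab genes had none or few: 37 had no Runx3-bound region, 17 had 1, 5 had 2 and 1 had 3. For H3K4me1 34 genes had none, 15 had 1 and 11 had 2 or more, with a highest count of 9. Rab8b, Rab27a and Rab3ip together held 23 of the 58 marked regions (39.7%). The mean number of marked regions was 0.967 per Rab gene, above the 0.750 of genes of similar length. Without these 3 genes it was 0.614, with 0.728 at similar length. The 3 were left out for their high counts, while the genes of similar length kept theirs. The lower mean therefore shows only how far the Rab mean rests on these 3 genes. The mean number of Runx3-bound regions was 0.500 per Rab gene and 0.386 at similar length.

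**Figure D2:**
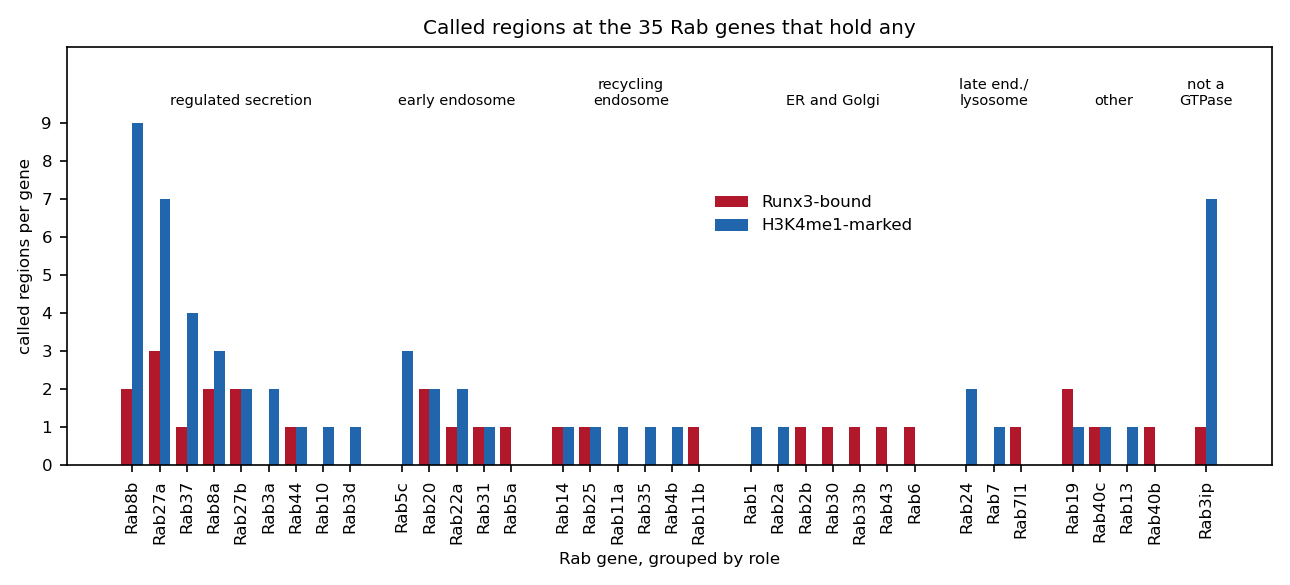
Number of Runx3-bound (red) and H3K4me1-marked (blue) regions (y axis) at each of the 35 Rab genes that hold any, grouped by role. Rab8b has the most marked regions (9) and Rab27a the most bound regions (3), and in the ER and Golgi group no gene has both.

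The Rab genes of regulated secretion were the group with the most regions. It also had the highest median length, 57.6 kb, against 23.0 kb for all Rab genes. Its genes send cargo to the plasma membrane and dock granules there. The 12 genes held 30 of the 58 H3K4me1-marked regions (51.7%) and 11 of the 30 Runx3-bound regions (36.7%). Rab8b and Rab27a alone had 9 and 7 of these marked regions. The group was drawn broadly, as Rab8a, Rab8b and Rab10 are listed for traffic to the plasma membrane and not for granules. These genes had 3, 9 and 1 of the marked regions and 2, 2 and 0 of the Runx3-bound regions. H3K4me1 was present at 9 of the 12 (75.0%, interval 46.8 to 91.1), with 34.6% at similar length, and Runx3 at 6 (50%, 25.4 to 74.6), with 29.4% at similar length. All 6 bound genes were also marked. Of the 48 genes outside this group, 17 were bound and 17 were marked (35.4% each).

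Rab27a (ENSMUSG00000032202.4, chr9:72892672-72945399, plus strand) encodes the GTPase that docks lytic granules. It held 3 Runx3-bound regions, the most of any Rab gene, and 7 H3K4me1-marked regions, which covered 18.2% of its window, against a mean of 3.59% at similar length. As many Runx3-bound regions were found at 4.50% of the 200 genes of similar length, and as many marked regions at 4.00%. In this and later paragraphs genes with high counts were picked out of the whole family. Low shares of this kind can arise from that choice alone, so they do not show that a gene is unusual. The Runx3-bound regions of Rab27a lay in introns at 16.2, 28.6 and 44.8 kb from the gene start, and the second and the third overlapped marked regions. The gene 2410004A20Rik starts within 5 kb of the 3′ end of Rab27a, and for the second and the third region its start was the nearest, at 28.4 and 12.1 kb. The central 200 bp of all 3 are shown because each holds TGTGGT, a variant of the RUNX motif. Here and below the plus strand of mm9 is printed 5′ to 3′, and capitals mark RUNX motifs in either direction, so that ACCACA is TGTGGT on the other strand.
Rab27a, 16.2 kb, chr9:72908800-72908999, not marked by H3K4me1: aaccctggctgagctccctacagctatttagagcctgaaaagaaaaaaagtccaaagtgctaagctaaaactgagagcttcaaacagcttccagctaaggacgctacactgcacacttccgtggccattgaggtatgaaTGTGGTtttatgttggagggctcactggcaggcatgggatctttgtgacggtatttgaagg
Rab27a, 28.6 kb, chr9:72921152-72921351, marked: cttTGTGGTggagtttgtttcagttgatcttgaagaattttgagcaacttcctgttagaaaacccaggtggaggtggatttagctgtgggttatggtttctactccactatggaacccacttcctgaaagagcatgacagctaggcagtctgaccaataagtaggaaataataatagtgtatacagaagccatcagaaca
Rab27a, 44.8 kb, chr9:72937411-72937610, marked: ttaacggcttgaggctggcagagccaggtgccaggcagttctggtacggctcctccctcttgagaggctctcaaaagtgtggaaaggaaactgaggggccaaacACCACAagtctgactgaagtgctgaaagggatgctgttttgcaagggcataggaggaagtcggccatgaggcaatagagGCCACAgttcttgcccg

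Its paralogue Rab27b (ENSMUSG00000024511.9) acts in the docking of secretory granules and the release of exosomes, and it is much longer, at 162 kb. It held 2 Runx3-bound regions in introns, at 79.1 and 95.5 kb from the gene start, and each overlapped 1 of its 2 marked regions. These marked regions covered 2.50% of the window, close to the 2.52% of genes of similar length. Of the genes of that length, 22.0% had as many Runx3-bound regions and 35.5% as many marked regions. Neither paralogue was bound within 1 kb of its gene start.

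Rab8a and Rab8b move vesicles from the trans-Golgi network to the plasma membrane. Rab8b (ENSMUSG00000036943.7, chr9:66691479-66767512, minus strand) had 9 H3K4me1-marked regions, the most of any Rab gene, and all 9 lay in introns. They covered 26.3% of the window, against a mean of 2.91% at similar length, where 3% of genes had as many regions. This low share was not adjusted for the choice of Rab8b as the gene with the highest count. The first 8 marked regions lay between 2.01 and 37.1 kb from the gene start and the last at 45.7 kb. Rab8b had 2 Runx3-bound regions. One, at 3.06 kb, ended 8 bp short of a marked region and lay 713 bp from another, and the second, at 46.0 kb, overlapped the last marked region.

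Rab8a (ENSMUSG00000003037.9, chr8:74685099-74707803, plus strand) had 2 Runx3-bound regions as well. One was centred 0.541 kb upstream of the gene start and was the widest at any Rab gene, at 1097 bp. The other lay in an intron at 8.34 kb and bridged 2 marked regions, of which the 6393 bp region was the widest marked region at any Rab gene. Marked regions covered 25.1% of the Rab8a window, with a mean of 2.19% at similar length. Another marked region, past the 3′ end, lay 0.467 kb from the start of the neighbouring gene Hsh2d.

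None of the intronic Runx3-bound regions of Rab8a and Rab8b held a RUNX motif in its central 200 bp. Each held one farther out, and the 60 bp around the motif nearest to the centre are shown because they are the closest RUNX motifs in these regions. The middle of the motif lay 154 bp from the centre for Rab8a, and 103 and 106 bp for the proximal and the distal region of Rab8b.
Rab8a, 8.34 kb, chr8:74693255-74693314: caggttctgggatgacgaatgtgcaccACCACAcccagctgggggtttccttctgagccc
Rab8b, 3.06 kb, chr9:66764524-66764583: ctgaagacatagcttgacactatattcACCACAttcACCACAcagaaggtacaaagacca
Rab8b, 46.0 kb, chr9:66721553-66721612: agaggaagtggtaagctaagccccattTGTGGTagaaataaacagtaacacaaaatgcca

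Rab3ip encodes Rabin8, the exchange factor that activates Rab8, and is a member by name only. It resembled Rab8b in its marked regions: it had 7, which covered 18.2% of the window, with a mean of 3.35% at similar length and 2.50% of such genes with as many. Its single Runx3-bound region lay in a coding exon at 36.3 kb, overlapped a marked region and had 2 RUNX motifs in its central 200 bp. The other exchange factor, Rab3il1, held no region of either kind.

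**Figure D3:**
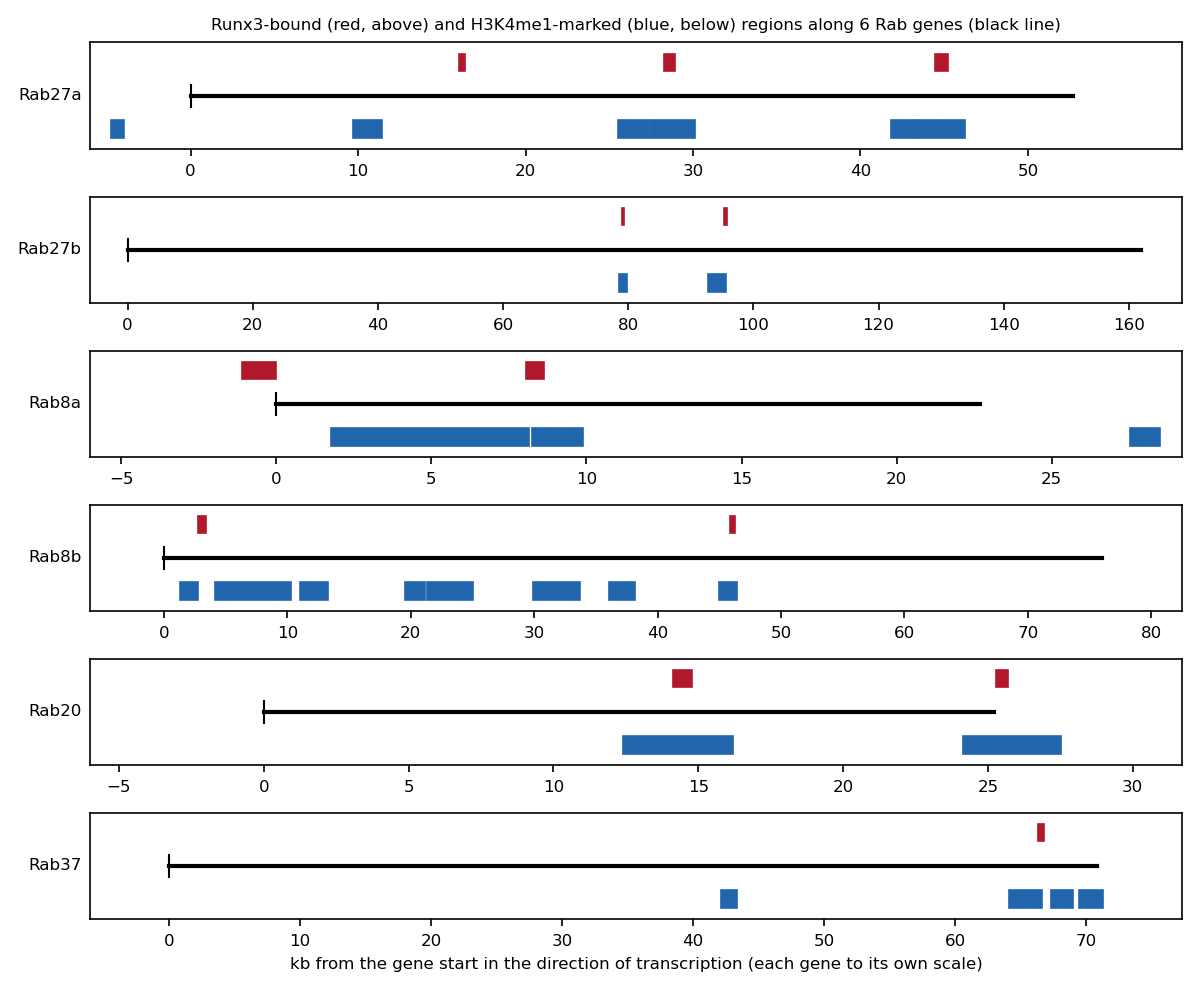
Called regions along 6 Rab genes, with kb from the gene start in the direction of transcription on the x axis (each gene to its own scale). The black line is the gene, red boxes above it are Runx3-bound regions and blue boxes below it are H3K4me1-marked regions, which look joined where the gap between them is small. At Rab27b and Rab20 each red box lies over a blue box, while Rab8b has 9 blue and 2 red boxes and the upstream red box of Rab8a has no blue box under it.

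Among the other genes of secretion, Rab44, a large Rab with EF hands that is found in granules, had 1 Runx3-bound region 17.7 kb from its start, beyond its 3′ end and inside its 1 marked region. The central 200 bp of this region held 4 RUNX motifs and are shown for that reason.
Rab44, 17.7 kb, chr17:29289578-29289777, marked: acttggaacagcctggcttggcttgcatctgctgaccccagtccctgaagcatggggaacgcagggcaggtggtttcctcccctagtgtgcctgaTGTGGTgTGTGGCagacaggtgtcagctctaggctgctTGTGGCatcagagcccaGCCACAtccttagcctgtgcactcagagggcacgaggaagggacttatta

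Rab37, a Rab of secretory granules, had 1 Runx3-bound and 4 marked regions, but none of the 5 had the start of Rab37 as its nearest gene start. They lay between 42.7 and 70.4 kb from it, near the starts of Cd300lf and Slc9a3r1. The Rab3 genes of regulated exocytosis held no Runx3-bound region. Rab3a, known from synaptic vesicles, had 2 marked regions, Rab3d, of secretory granules, had 1, and Rab3b and Rab3c had none, although Rab3c is the longest member at 227 kb. Rab10, which serves exocytic traffic, had 1 marked region, and Rab26, of secretory granules, had no region.

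At the early endosome 4 of 7 genes were bound and 4 were marked (57.1% each, interval 25 to 84.2), with 30.3% and 35.1% at similar length. Rab20 (ENSMUSG00000031504.5, chr8:11453392-11478638, minus strand), which acts in phagosome maturation, had 2 Runx3-bound regions, and both overlapped marked regions. One lay in an intron at 14.5 kb from the gene start and the other beyond the 3′ end at 25.5 kb. Marked regions covered 20.4% of the window, with a mean of 3.91% at similar length, and 9% of such genes had as many Runx3-bound regions. The intronic region is shown because TGTGGT and TGTGGC stand in it only 2 bases apart on opposite strands.
Rab20, 14.5 kb, chr8:11464071-11464270, marked: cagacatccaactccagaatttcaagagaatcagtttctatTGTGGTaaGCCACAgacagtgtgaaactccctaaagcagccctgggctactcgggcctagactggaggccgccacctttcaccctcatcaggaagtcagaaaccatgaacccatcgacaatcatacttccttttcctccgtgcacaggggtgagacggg

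The 3 Rab5 genes, which drive fusion of early endosomes, did not share a pattern. Rab5a had 1 Runx3-bound region, centred 0.211 kb upstream of its start, and no marked region. Rab5b had neither kind. Rab5c had no Runx3-bound region and 3 marked regions of 5170, 2133 and 3531 bp, which covered 32.6% of its window, the highest share of any Rab gene, with a mean of 2.38% at similar length.

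Rab31 and Rab22a, also of the endosome, each had 1 Runx3-bound region that was not marked. At Rab31 it lay in an intron 97.9 kb from the start and held 1 RUNX motif in its central 200 bp. At Rab22a it lay 48.0 kb from the start, past the 3′ end, and the whole region held 18 RUNX motifs, of which 10 were in the central 200 bp. Only 7 of all 9135 Runx3-bound regions (0.0766%) held 18 or more. The sequence is shown because it is a tandem repeat: of its words of 32 bases 69.9% were distinct, a share no higher than this being found at 4 regions in all. Uniquely aligned reads had been kept for peak calling, and how this bears on the repeat was not tested.
Rab22a, 48.0 kb, chr2:173533211-173533410, not marked: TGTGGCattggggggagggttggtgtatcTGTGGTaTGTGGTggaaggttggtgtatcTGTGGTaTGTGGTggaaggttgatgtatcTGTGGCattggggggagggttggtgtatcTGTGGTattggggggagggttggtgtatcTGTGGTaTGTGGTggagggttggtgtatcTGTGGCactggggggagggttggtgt

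The Rabs of the recycling endosome return receptors to the cell surface. Of the 10 genes 3 were bound (30%, with 24.8% at similar length) and 5 were marked (50%, interval 23.7 to 76.3, with 30.2%). The Rab11 pair, which serves slow recycling, split: Rab11b had a Runx3-bound region 0.166 kb from its start and no marked region, and Rab11a had a marked region at 3.42 kb and no Runx3-bound region. Rab14, of endosome to Golgi traffic, was bound 0.0690 kb upstream of its start. Rab35, a Rab of fast recycling and of the immune synapse, was not bound and had 1 marked region of 3611 bp at 2.56 kb.

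Rab25, the epithelial paralogue of Rab11, was bound in an intron at 4.05 kb from its gene start, which was 0.733 kb from the start of another of its transcripts. Of the Runx3-bound regions at Rab genes within 1 kb of an annotated transcript start, it was the only one that overlapped H3K4me1. It is shown because 3 different variants of the RUNX motif stand in its central 200 bp.
Rab25, 4.05 kb, chr3:88348070-88348269, marked: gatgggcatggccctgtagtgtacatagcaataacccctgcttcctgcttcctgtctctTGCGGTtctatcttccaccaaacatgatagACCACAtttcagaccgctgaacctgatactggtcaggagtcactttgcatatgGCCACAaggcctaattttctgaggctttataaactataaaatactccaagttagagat

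No gene of the 13 of the ER and Golgi held both kinds of region, and 6 held neither. Runx3 was found at 5 of them (38.5%, interval 17.7 to 64.5, with 27.5% at similar length) and H3K4me1 at 2 (15.4%, 4.33 to 42.2, with 33.2%), and both intervals include the share at similar length. The bound genes were Rab6, of retrograde Golgi transport, Rab30, Rab33b and Rab43, of the Golgi, and Rab2b, of the ER to Golgi intermediate compartment. For 4 of the 5 the region lay within 1 kb of a transcript start of the gene, and at Rab6 its centre was 0.00400 kb from the gene start. The marked genes were Rab1, which directs transport from the ER to the Golgi, and Rab2a, with 1 region each.

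At Rab2b the Runx3-bound region lay past the 3′ end, 21.8 kb from the gene start, with the start of Chd8 as the nearest gene start at 20 kb. Its central 200 bp are shown because they hold 3 copies of TGCGGC, the rarest of the motif variants, which was found in the central window of 8.41% of all Runx3-bound regions.
Rab2b, 21.8 kb, chr14:52877323-52877522, not marked: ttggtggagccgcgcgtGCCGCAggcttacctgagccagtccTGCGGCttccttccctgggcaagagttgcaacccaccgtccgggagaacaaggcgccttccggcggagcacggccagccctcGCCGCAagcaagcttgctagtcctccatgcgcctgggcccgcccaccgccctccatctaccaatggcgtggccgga

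Late endosomes and lysosomes had the lowest share of bound genes of the role groups. Of the 7 genes only Rab7l1, also named Rab29, was Runx3-bound (14.3%, interval 2.57 to 51.3, with 22.3% at similar length), 0.205 kb from its start. Rab7, which controls fusion with the lysosome, had a marked region 3.06 kb upstream of its start and no Runx3-bound region. Rab24, linked to autophagy, had 2 marked regions over a gene of 2.76 kb. Rab9 and Rab9b, of retrieval from late endosomes, and Rab32 and Rab38, of lysosome-related organelles, had no region.

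**Figure D4:**
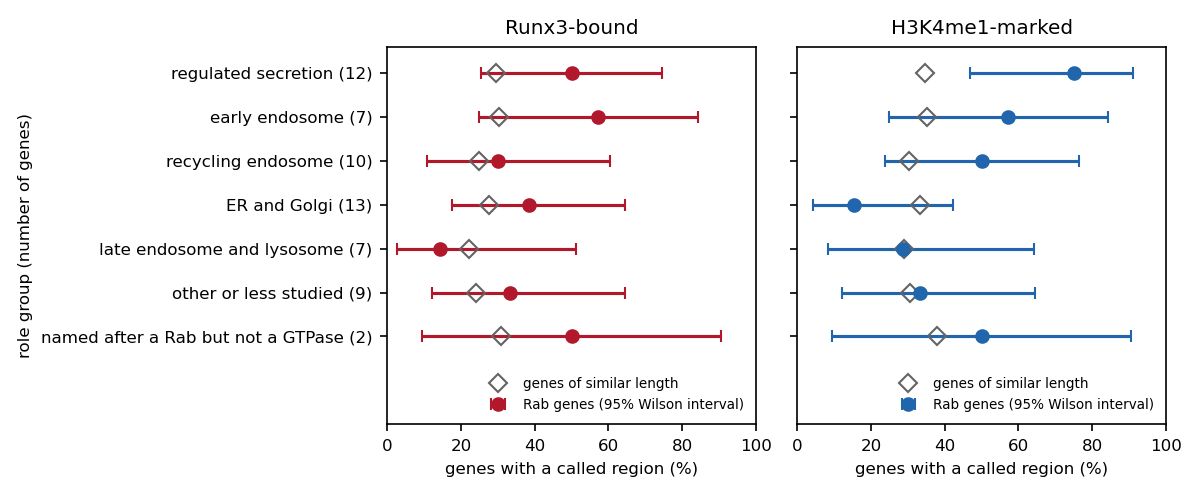
Share of genes with a Runx3-bound (left) or H3K4me1-marked (right) region (x axis, %) in each role group of Rab genes (y axis, number of genes in brackets). Filled points are Rab genes with 95% Wilson intervals and open diamonds are genes of similar length. Only for H3K4me1 in regulated secretion (75.0%) does the interval lie wholly above the diamond (34.6%).

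Of the 9 remaining genes 3 were bound (33.3%, with 24% at similar length) and 3 were marked (33.3%, with 30.6%). The interval of both was 12.1 to 64.6, which includes both shares at similar length. Rab40b and Rab40c encode Rabs with a SOCS box that join ubiquitin ligases. Rab40c was bound 0.459 kb from its start, while the Runx3-bound region counted for Rab40b lay 0.018 kb from the start of the neighbouring gene Wdr45l. Likewise 1 of the 2 regions of the little studied Rab19 lay 0.026 kb from the start of Slc37a3. The other Rab19 region, 1.49 kb upstream of its start, overlapped a marked region.

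The 4 members on the X chromosome, Rab9, Rab9b, Rab33a and Rab39b, held no region of either kind. Regions were sparse on this chromosome as a whole, where 5.79% of 932 genes were Runx3-bound and 2.79% H3K4me1-marked. The 5 longest members with neither kind were Rab3c (227 kb), the cilium-linked Rab28 (83.2 kb), Rab6b (73.2 kb), Rab3b (64.3 kb) and Rab38 (61.2 kb).

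Paralogues were compared in sets that share a number and differ in at most a final letter, which leaves out Rab7l1, Rab3ip, Rab3il1 and Rab42-ps. Among the 13 such sets, Runx3 was present at every member in 3 (Rab8, Rab27 and Rab40), at some members in 5 (Rab2, Rab5, Rab6, Rab11 and Rab33) and at no member in 5 (Rab1, Rab3, Rab4, Rab9 and Rab39). In 3 sets, Rab2, Rab5 and Rab11, 1 member was Runx3-bound without H3K4me1 and another was marked without Runx3. The counts for Rab40 and Rab2 rest on regions of Rab40b and Rab2b whose nearest gene starts were those of Wdr45l and Chd8. Rab4b and Rab1 had a marked region each, while Rab4a and Rab1b had no region.

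The 30 Runx3-bound regions lay nearer to transcription start sites (TSSs) than the list as a whole. Within 1 kb of a TSS lay 13 of them (43.3%, interval 27.4 to 60.8), against 26.3% of all Runx3-bound regions, and farther than 5 kb lay 14 (46.7%), against 56.4%. Regions at genes are by construction nearer to a TSS than intergenic ones, and 16.7% of the 30 were intergenic against 35.7% of all. Counted by gene, Runx3 lay within 1 kb of a start of the gene at 11 Rab genes (18.3%, interval 10.6 to 29.9), at 12.4% of genes of similar length and at 10.4% of all genes. The 11 were Rab5a, Rab6, Rab7l1, Rab8a, Rab11b, Rab14, Rab25, Rab30, Rab33b, Rab40c and Rab43. The starts of Rab genes were rich in CpG: the observed to expected ratio of CpG over 500 bp on each side was above 0.6 at 66.7% of Rab genes, 51.3% of genes of similar length and 45.6% of all genes. Among the 11 bound starts it was above 0.6 at 9 (81.8%), against 73.9% of all bound starts.

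The overlap with H3K4me1 followed the place. Of the 30 regions 13 overlapped a marked region (43.3%, interval 27.4 to 60.8), against 57.3% of all Runx3-bound regions. Within 1 kb of a TSS 1 of 13 did (7.69%, with 20% of all such regions), and beyond 5 kb 10 of 14 did (71.4%, with 72.3%). By role, 8 of the 11 regions at secretion genes overlapped H3K4me1, and none of the 5 at ER and Golgi genes did. Within 1 kb of a TSS lay 1 of these 11 regions and 4 of these 5. Whether the overlap differs by role at like distance was not tested. The 9 genes with Runx3 but no marked region were mostly bound at a start: in 8 of them the region lay within 1 kb of a TSS, for 7 that of the gene itself. The start base of no Rab gene lay in a marked region, which allows a share of up to 6.02% by the Wilson interval, and it did at 1.29% of all genes.

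**Figure D5:**
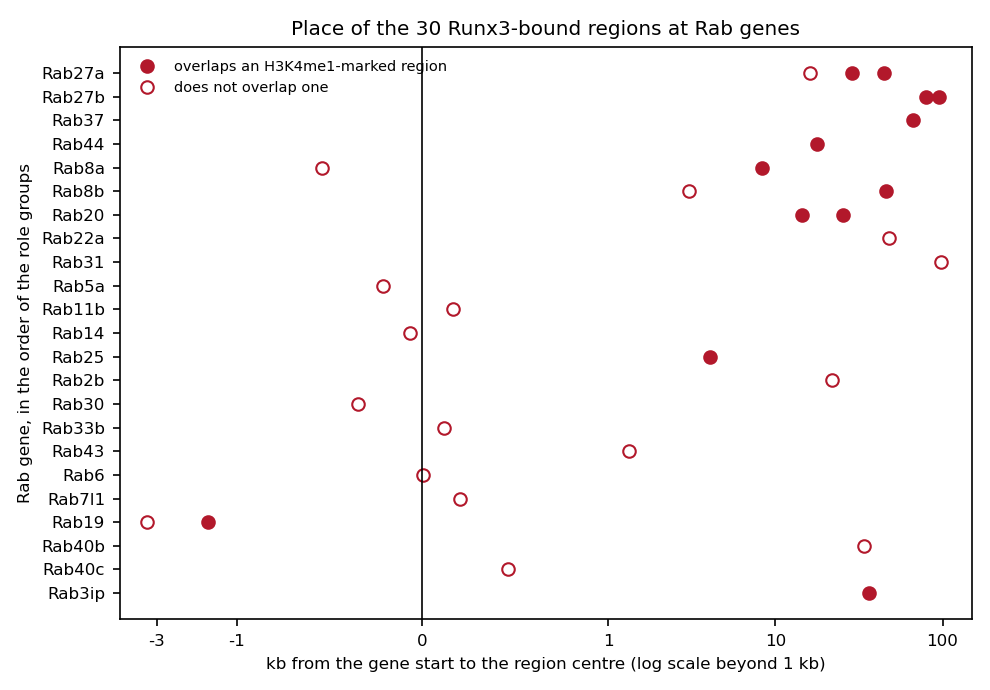
Distance from the gene start to the centre of each of the 30 Runx3-bound regions (x axis, kb, linear within 1 kb and logarithmic beyond), by gene (y axis). Filled points overlap an H3K4me1-marked region and open points do not. All points within 1 kb of the gene start are open, and 10 of the 13 filled points belong to genes of secretion and to Rab20.

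Seen from the genes, H3K4me1 was present at 14 of the 23 bound Rab genes (60.9%, interval 40.8 to 77.8) and at 12 of the 37 unbound ones (32.4%, 19.6 to 48.5). Over all genes these shares were 70.1% and 15.8%. Counted over all members, H3K4me1 without Runx3 was found at 12 of the 60 Rab genes (20%, interval 11.8 to 31.8), at 13.9% of genes of similar length and at 12.1% of all genes, and both of these shares lie inside the interval. Rab genes bound at the start had a marked region in 4 of 11 cases (36.4%, with 58.6% of all such genes), and those bound elsewhere in 10 of 12 (83.3%, with 79.2%).

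RUNX motifs were searched on both strands in 4 forms, namely TGTGGT, its form TGTGGC with a final C, the form TGCGGT with a CpG, and TGCGGC, which has both changes. The central 200 bp held at least 1 in 21 of the 30 regions (70.0%, interval 52.1 to 83.3), against 78.7% of all Runx3-bound regions, and the whole region did in 30 of 30, against 92.6%. TGTGGT was in the central window of 2 of the 13 regions within 1 kb of a TSS (15.4%, with 30.4% of all such regions) and of 11 of the 14 beyond 5 kb (78.6%, with 63.5%). Of the variants with a CpG, TGCGGT was found in 4 of 13 (30.8%, with 23.8%) and 1 of 14 (7.14%, with 9.74%). The other, TGCGGC, was found in 2 of 13 (15.4%, with 20%) and 1 of 14 (7.14%, with 4.19%). ETS factors often share sites with RUNX factors, and an ETS core (AGGAA or CGGAA followed by A or G, on either strand) was in the central window of 25 of the 30 (83.3%, interval 66.4 to 92.7), against 66.1% of all regions. A match of letters is a description and not a proof of a site. In the promoter, taken as 250 bp before to 50 bp after the gene start, 31 Rab genes held a RUNX motif (51.7%), as did 46.9% of genes of similar length and 45.3% of all genes. The 11 bound starts held one in 7 cases (63.6%, with 60.2% of all bound starts).

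The genes that act on Rabs were taken from lists of known partners. They turn Rabs off, turn them on or read their state. Of 33 GTPase-activating proteins 15 were Runx3-bound (45.5%, with 32.8% at similar length) and 19 marked (57.6%, with 38.9%). Tbc1d2b (68.8 kb long) and Tbc1d16 (85.5 kb) had 4 Runx3-bound regions each, and Rabgap1l (574 kb) and Tbc1d22a (284 kb) had 3 each. Of 30 exchange factors 11 were bound (36.7%, with 31.6%) and 19 marked (63.3%, with 39.3%). Rin3, an activator of Rab5, and Dennd1b, an activator of Rab35, had 2 Runx3-bound regions each, and Rin3 had 11 marked regions.

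Among 42 effectors 19 were bound (45.2%, with 31.1%) and 23 marked (54.8%, with 37.6%). Rab11fip4, a partner of Rab11, had 5 Runx3-bound and 7 marked regions, the most bound regions in these lists. Sytl2, a synaptotagmin-like partner of Rab27 at the plasma membrane, had 3 and 7, and all 3 overlapped marked regions. Unc13d, or Munc13-4, which primes lytic granules together with Rab27a, had 2 and 2, and both Runx3-bound regions overlapped marked regions. Uso1, Mical1, Myo5a and Rilpl2 also had 2 Runx3-bound regions each.

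The listed fusion partners of the lytic granule held few regions, but this list leaves out Unc13d, which was counted among the effectors. For Runx3 the share at similar length lay inside their wide interval. Of 13 genes only Snap23, a SNARE of the plasma membrane, was Runx3-bound (7.69%, interval 1.37 to 33.3, with 27.1% at similar length), and 4 were marked (30.8%, with 34.5%). Stx11 had 1 marked region and Lyst, the gene of Chediak-Higashi syndrome, had 2, while Stxbp2, Vamp8, Vamp2 and Syt7 had no region. Of 7 genes for the lipid tail of Rabs and their cycling on and off membranes, 2 were bound (28.6%, with 22.0% at similar length). The same 2 were marked (28.6%, with 26.9%), so both shares were near those at similar length. Rabggta had 2 Runx3-bound and 2 marked regions and Rabggtb 1 of each, and these encode both chains of the Rab geranylgeranyl transferase. Chm, Chml, Gdi2 and Rabac1 had none.

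Regions were also counted at marker genes of activated CD8-TC in the same way, as a description only. No genes of other cell types were set beside them, so the counts cannot check the cell type. Cd8a had 1 Runx3-bound and 2 marked regions, Cd8b1 2 and 4, Cd3g 1 and 3, Il2ra 3 and 9, and Gzmb 2 and 2, while Cd3e had 5 marked regions and no Runx3-bound one. A peak list holds no expression, so these counts describe chromatin only, and whether any Rab gene changed in transcription cannot be read from them.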

How the data were processed

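ChIP-seq had been performed on IL-2-activated CD8-TC with anti-Runx3, NIS and anti-H3K4me1. Per the labels and methods, the authors aligned the reads to mm9 with ELAND, kept those that aligned uniquely and called peaks with MACS on the joined repeats against joined NIS reads. The labels list 1 H3K4me1 library, although their protocol speaks of 2 repeats. The deposited values are the start and end positions of called peaks, without score or height, so the depth was not analysed here and intervals cover counting error only.

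Genes and sequence were GENCODE vM1 and the NCBIM37 assembly, which is mm9. Coordinates count from 1, overlap required at least 1 bp and the window was the gene body with 5 kb added at each end. Genes of similar length were the 200 protein-coding genes nearest in length to each Rab gene. Distances were taken from the region centre. Shares carry 95% Wilson intervals. No replicate test was possible, so no p-value is given. The functions were tested on simulated data, where they gave 0 differences from direct counting and recovered 19.5 of 20 planted percentage points of excess. The tools were pysam 0.24.0, pandas 2.3.3 and NumPy 2.4.6 for counting, SciPy 1.17.1 for intervals and matplotlib 3.10.9 for plots, under Python 3.11.15.

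The members, role groups, partner lists and tests were chosen with earlier results of these data known. Named were the 10 Rab genes with the most regions of each kind with ties, the 5 longest with neither, those on X, those of cytotoxic granule traffic, paralogues, and the 3 genes of each partner list with the most Runx3-bound regions with ties. Some partner genes and 1 gene family are not reported here. Rab10, Rab26, Rab32, Rab35 and the Rab9 and Rab39 sets were named after their values were seen. Alternatives were other windows, merged regions, region centres, other sets of genes of similar length, autosomes, the true GTPases, and other motif windows.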

Additional observations from a re-analysis of the deposited data

How the results depend on the processing

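The 9 results were given 71 further values by changing the processing. Of these, 62 stayed within the counting interval or within 1.5 times the count, 9 moved outside and 0 reversed. With 5 kb on either side of the gene start in place of the gene body, 21.7% of Rab genes were Runx3-bound, 25% H3K4me1-marked and 6.67% both, with 14 Runx3-bound and 17 marked regions. With only regions whose nearest gene start is that of the Rab gene, 37 marked regions remained. The share of Runx3-bound regions with a RUNX motif was 100% over the whole region, 50% in the central 100 bp and 46.7% for TGTGGT alone. The differences from genes of similar length, read here against the counting interval of the Rab share, stayed above 0 but ranged from 6.04 to 13.3 percentage points for Runx3 and from 5.58 to 12.3 for H3K4me1. The lowest of both, over 5 kb around the gene start, and the 7.30 points for Runx3 over the gene body alone were more than 1.5 times below the values reported. They are still among the 62, because the counting interval of the Rab share is wide. For H3K4me1 this interval includes the share at similar length, so even a difference of 0 would have stayed inside it. With genes of the same CpG class, an alternative chosen after seeing the data, they were 9.89 and 8.47 points. Without the 2 members that are not GTPases they were 11.3 and 10.9 points. Peak height, depth and the spread between repeats are not in the lists, so a weak peak cannot be told from a strong one, and a gene without a region is one without a call at the depth used. No paired analysis was possible because the peaks were called on joined repeats and the lists carry no replicate.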

Other observations

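Distance from the gene start gave a measure that does not depend on the window. The nearest H3K4me1-marked region was at a median of 24.2 kb from the starts of Rab genes, 60 kb from those of all protein-coding genes and 45.6 kb from those of genes of similar length, taken as the median over the Rab genes of each set's median. For Runx3 the medians were 51.2, 72.8 and 54.8 kb. No marked region lay within 100 kb of the start at 16 of the 60 Rab genes, against 40.3% of all protein-coding genes, and no Runx3-bound region did at 15 of the 60, against 43.0%. Rab30, a Golgi Rab, was Runx3-bound 0.344 kb upstream of its start, and the nearest marked region was 2268 kb away. The starts of Rab28 and Rab9b were 2116 and 3638 kb from a marked region.

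A called region in a window need not belong to the gene. The nearest gene start was that of the Rab gene for 20 of the 30 Runx3-bound regions (66.7%) and 37 of the 58 marked regions (63.8%). At Rab27a this held for 1 of 3 Runx3-bound and 2 of 7 marked regions, and at Rab8b for 1 of 2 and 8 of 9. Of the marked regions at Rab genes 32 of 58 (55.2%) lay in introns, against 43.0% of the whole list, a comparison in which the choice of windows around genes sets few intergenic regions (8.62% against 36.4%). Of the 58 regions 15 (25.9%) overlapped a Runx3-bound region, against 29.2% of all marked regions.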
